A study of Mus musculus with 4 samples.

Results

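The genes described here are 9 transcription factor genes of facial and neural crest mesenchyme: Alx1, Alx4, Pax3, Lhx8, Shox2, Tfap2a, Tfap2b, Prrx1 and Twist1. They are 9 of the 18193 genes named on the array, and all 21 probe sets annotated to 1 of these symbols alone were taken. The genes were picked with their signals on these arrays already known, and the comparisons made for them are replicate 2 against replicate 1 within a genotype and PTIP -/- against PTIP +/+ within a replicate number. Those values are therefore given as a description, with no test for the members. The cells were an immortalized line of mouse embryonic fibroblasts whose PTIP alleles are floxed (PTIP flox/flox). PTIP -/- cells had received a retrovirus carrying Cre recombinase, PTIP +/+ cells the same vector without Cre, so the control cells carry the floxed alleles too. Cells grew in medium with 10% serum and were selected with 2.5 ug/ml puromycin. Each genotype gave 2 RNAs, numbered 1 and 2, on 1 array each. What a number stands for (culture, infection or day) is not stated, so p-values measure only the spread between these RNAs.

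Neural crest cells leave the edge of the closing neural tube and, in the head, form most of the bone, cartilage and connective tissue of the face. Combinations of transcription factors mark where along the head such mesenchyme lies: the aristaless-type homeodomain proteins ALX1 and ALX4 in the frontonasal part, the LIM homeodomain protein LHX8 in the upper jaw and palate, and the homeodomain protein SHOX2 in the palate and the limb. PAX3 and the AP-2 proteins, encoded by Tfap2a and Tfap2b, act earlier, at the border where the crest arises, and PAX3 also marks muscle precursors. PRRX1 and the basic helix-loop-helix protein TWIST1 are shared by mesenchyme of the face, the trunk and the limbs.

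The region before the start of transcription is shown for 3 members whose signals lay far apart between the replicate numbers, Lhx8 on one side and Tfap2a and Tfap2b on the other. Of the 9 members, 6 were found in the RefSeq promoter table of build GRCm38.p6, with 7 starts. Each line holds the 250 bases before a start, 5′ to 3′ on the gene's strand, and capitals mark the homeodomain core TAATTA.
Lhx8, chr3:154330561-154330810, minus strand: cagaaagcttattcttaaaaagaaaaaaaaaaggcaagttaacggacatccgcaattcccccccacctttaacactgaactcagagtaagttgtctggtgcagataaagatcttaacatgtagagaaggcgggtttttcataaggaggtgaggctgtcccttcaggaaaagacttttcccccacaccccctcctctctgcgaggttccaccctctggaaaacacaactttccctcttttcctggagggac
Tfap2a, chr13:40734921-40735170, minus strand: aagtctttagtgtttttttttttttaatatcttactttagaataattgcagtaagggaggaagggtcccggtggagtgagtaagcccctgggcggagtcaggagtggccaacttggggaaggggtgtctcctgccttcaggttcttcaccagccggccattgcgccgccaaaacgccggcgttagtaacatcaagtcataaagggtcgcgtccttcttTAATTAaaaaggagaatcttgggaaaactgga
Tfap2b, chr1:19211804-19212053, plus strand: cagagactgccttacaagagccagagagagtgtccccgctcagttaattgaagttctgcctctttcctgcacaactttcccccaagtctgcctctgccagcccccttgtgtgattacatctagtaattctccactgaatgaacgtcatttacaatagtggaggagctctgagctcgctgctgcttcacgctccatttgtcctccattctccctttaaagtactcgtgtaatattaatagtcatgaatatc

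The Lhx8, Tfap2b and Prrx1 windows hold 4, 5 and 4 CpG dinucleotides, the Shox2 window 11, both Tfap2a windows 10 and the Twist1 window 18. Over 32851 promoter windows of the same length the median was 6, with quartiles of 2 and 16, so only Twist1 lay outside the quartiles. TAATTA, which reads the same on both strands, was found once before a start of Tfap2a and once before that of Prrx1, and 4.84% of all windows hold it. The AP-2 palindrome GCCNNNGGC, also alike on both strands, was in none of the 7 windows and is in 13.7% of all windows. The E-box CANNTG, the letters that basic helix-loop-helix proteins such as TWIST1 bind and again alike on both strands, had 1 match in the 7 windows, before Tfap2b, and 66.2% of all windows hold it. No match says only that these letters are not in this window.

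All 9 members were tested genes, since the mean log2 signal of their brightest probe set reached the 40th percentile of all probe sets, a signal of 47.68. That value also serves below as the lowest signal read as a level: an array under it was raised to it, and the fold is then given as "at least". For Alx1, Alx4, Pax3, Lhx8, Shox2 and Tfap2b the arrays of one replicate number alone carried the gene past that level. Of the 21 member probe sets, 18 passed. The arrays themselves had median signals of 97.8 and 83.2 for the replicate 1 arrays and 82.5 and 75.8 for the replicate 2 arrays (PTIP -/- first), their 2% trimmed means were 500 each, and actin control probe sets gave 3' to 5' ratios of 1.07 to 1.21. Paxip1, the deleted gene, read 43.5 and 74.6 in PTIP -/- cells against 1029.5 and 1040.1 in PTIP +/+ cells on its brightest probe set. Its other probe sets read 2.1 to 19.0 in PTIP -/- cells and 205.0 to 486.6 in PTIP +/+ cells. Which exons were deleted is not stated, so the position of its probe sets relative to them is unknown here.

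The 4 arrays separated by replicate number for these genes far more than by genotype. Alx1, Pax3, Lhx8 and Shox2 were bright in replicate 1 and under the level in replicate 2, and Tfap2a and Tfap2b were bright in replicate 2 and dim in replicate 1, whatever the genotype. Within both genotypes, 4 members were at least 2-fold lower in replicate 2, where 3.3% of the 12509 genes tested were, and 2 were at least 2-fold higher, where 4.36% were (6 members in either direction, beside 7.67%). At any size, 3 members were higher in replicate 2 in both genotypes and 6 lower, beside 33% and 38.1% of genes tested. Since the members were picked with this difference in view, those shares are given for scale only. The size of the measured difference had a median of 4.80 on the log2 scale over the members and 0.37 over all genes tested. That member median is the size for Shox2, whose replicate 2 signals lay under the level. With signals raised to the level the Shox2 difference was -4.18. The choice of members favours this gap too. In RNA from whole cultures, fewer cells of a type and less RNA per cell cannot be told apart.

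**Figure D1:**
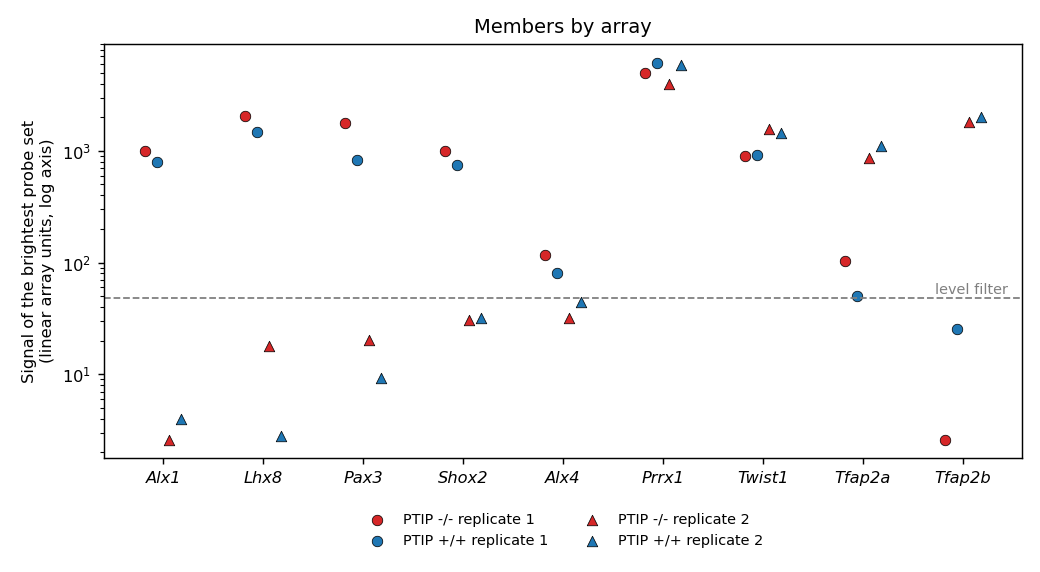
Signal of the brightest probe set of each member on the 4 arrays, in linear array units on a log axis, ordered by the difference between replicate numbers; each point is 1 array, circles stand for replicate 1, triangles for replicate 2, red for PTIP -/- and blue for PTIP +/+, and the dashed line is the level filter of 47.68. Circles lie above triangles from Alx1 to Alx4, the order is turned for Twist1, Tfap2a and Tfap2b, and only Prrx1 mixes them.

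Alx1, needed for the frontonasal skeleton, read 991.7 and 2.6 on PTIP -/- replicates 1 and 2 and 793.3 and 4.0 on PTIP +/+ replicates 1 and 2. Both replicate 1 arrays were high and both replicate 2 arrays were far under the level, so the numbers did not overlap. The drop to replicate 2 was at least 20.8-fold in PTIP -/- cells and 16.6-fold in PTIP +/+ cells. The measured log2 difference was -8.10 ± 0.67 (SD of the difference in the 2 genotypes), from replicate 2 signals that cannot be read as levels, and it was -4.22 with those signals raised to the level. A dimmer probe set of Alx1 gave 129.1 and 5.4 against 121.4 and 5.6.

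Alx4, the close relative of Alx1, was dim throughout. It read 117.5 and 31.7 on the PTIP -/- replicates and 79.8 and 44.3 on the PTIP +/+ replicates. The replicate 1 arrays again lay above the replicate 2 arrays, but the latter were just under the level, and the bounds were only 2.46-fold in PTIP -/- and 1.67-fold in PTIP +/+. Its measured log2 difference was -1.37 ± 0.74 (SD, n = 2), and -1.02 with signals raised to the level. Alx4 has a single probe set, so no second value stands beside it.

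Lhx8, a LIM homeodomain factor of the upper jaw and palate, has 1 probe set, which read 2067.2 and 18 in PTIP -/- cells against 1483.8 and 2.8 in PTIP +/+ cells, at least 43.4-fold and at least 31.1-fold lower in replicate 2. The measured log2 difference was -7.95 ± 1.56 (SD, n = 2), again from replicate 2 signals under the level, and -5.20 with those raised to it.

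Pax3, which marks the border of the neural plate, the early crest and muscle precursors, has 3 probe sets, and all gave the same order of arrays between the numbers. The brightest read 1765.4 and 20.1 in PTIP -/- cells against 833.8 and 9.3 in PTIP +/+ cells, the others 1382.3 and 3.9 against 676.0 and 12.3, and 1718.6 and 4.4 against 1021.4 and 3.7. The lower bounds of the drop to replicate 2 ran from 29.0-fold to 37.0-fold in PTIP -/- cells and from 14.2-fold to 21.4-fold in PTIP +/+ cells. On the brightest probe set the measured log2 difference was -6.47 ± 0.02 (SD, n = 2), and -4.67 with signals raised to the level. The small SD rests on replicate 2 signals under the level. The other Pax3 probe sets had differences of -7.12 and -8.36, with SDs of 1.90 and 0.35. The probe set with -8.36 was the brighter over the replicate 1 arrays alone, at a mean log2 of 10.37 against 10.24.

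Shox2 read 994.8 and 30.4 in PTIP -/- cells against 754.7 and 31.7 in PTIP +/+ cells, at least 20.9-fold and at least 15.8-fold lower in replicate 2 (measured log2 -4.80 ± 0.32, SD, n = 2, and -4.18 with signals raised to the level). A dim second probe set kept that order at 129.7 and 9.4 against 69.3 and 4.0.

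Tfap2b and Tfap2a, which encode AP-2 beta and AP-2 alpha, showed the opposite order. Tfap2b read 2.6 and 1815.8 on PTIP -/- replicates 1 and 2 and 25.6 and 2000.8 on PTIP +/+ replicates 1 and 2. Both replicate 1 arrays were under the level, and replicate 2 was at least 38.1-fold higher in PTIP -/- and at least 42.0-fold higher in PTIP +/+. Its measured log2 difference was 7.87 ± 2.23 (SD, n = 2). The spread of that value comes from signals of 2.6 and 25.6 that cannot be read as levels, and raising them to the level leaves 5.32. The second probe set of Tfap2b read 17.3 and 916.9 against 4.1 and 1248.0.

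On its brightest probe set, Tfap2a held a signal above the level on both replicate 1 arrays, though only just in PTIP +/+ cells. The brightest of its 3 probe sets gave 102.4 and 854.8 in PTIP -/- cells against 50.5 and 1094.1 in PTIP +/+ cells, so it was 8.35-fold and 21.7-fold higher in replicate 2. The other probe sets read 62.1 and 924.0 against 17.2 and 1468.3, and 94.0 and 307.1 against 74.8 and 381.0. All 3 were higher in replicate 2 in both genotypes, from 3.27-fold to at least 30.8-fold. The log2 difference of the brightest was 3.75 ± 0.97 (SD, n = 2), at rank 86 from the highest.

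Twist1 and Prrx1, the factors shared by mesenchyme of many sites, were well above the level on all 4 arrays. Twist1 read 894.1 and 1563.2 in PTIP -/- cells against 916.1 and 1437.7 in PTIP +/+ cells. It was 1.75-fold and 1.57-fold higher in replicate 2, with no overlap between the numbers (log2 0.73 ± 0.11, SD, n = 2), and ranked 1371 from the highest.

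Prrx1 was the 1 gene of the 9 whose arrays did not separate by number. The brightest of its 6 probe sets gave 4930.2 and 3998.1 in PTIP -/- cells against 6139.9 and 5894.4 in PTIP +/+ cells, a log2 difference between the numbers of -0.18 ± 0.17 (SD, n = 2) that turned to 0.01 with arrays centred on their medians and to 0.03 over the mean of its probe sets. That mean takes in 1 probe set under the level filter, which read 17.0 and 33.4 against 15.7 and 49.6, a difference of 1.32. The 5 Prrx1 probe sets above the filter had differences of -0.35 to -0.09. In all, 8 of the 9 members had both arrays of one number above both arrays of the other. Over all genes tested 25.5% lay wholly higher and 29.7% wholly lower in replicate 2, so that separation alone is common on these arrays. By measured signals, 5 members had a gap of at least 16-fold within both genotypes, against 0.488% of genes tested, a gap that the choice of members again favours. With signals raised to the level 4 had one, since Shox2 was then only bounded at 15.8-fold in PTIP +/+ cells.

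**Figure D2:**
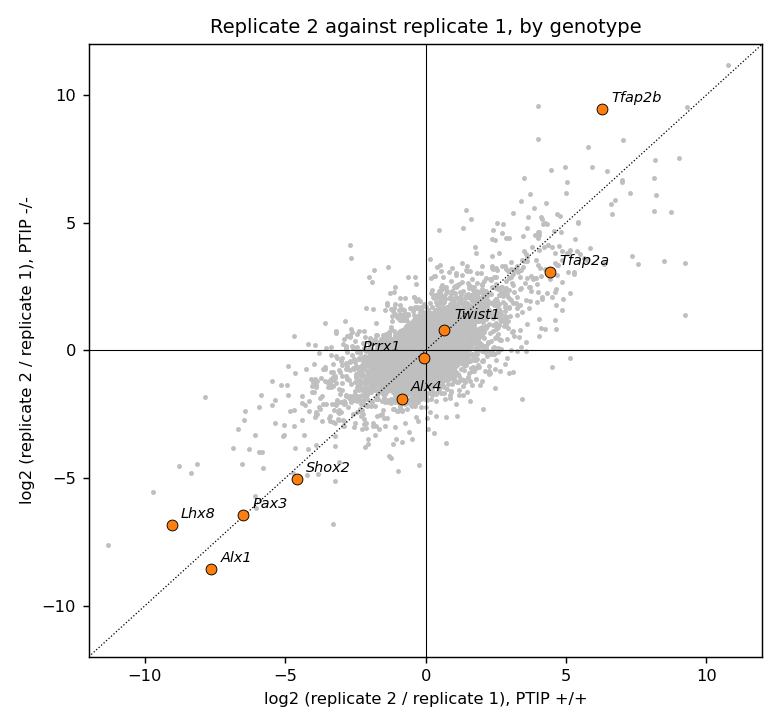
Log2 ratio of replicate 2 to replicate 1 in PTIP +/+ (x axis) and PTIP -/- (y axis) for the 12509 genes tested (grey points) and the 9 members (orange); the dotted line marks equal differences in both genotypes. Alx1, Lhx8, Pax3 and Shox2 lie at the lower left end of the cloud, Tfap2b at the upper right end, and Prrx1 near the origin.

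The genotype comparison, the question of the series, was made within each number, 1 array against 1 array. No member differed between PTIP -/- and PTIP +/+ by as much as the 4 farthest members differed between the numbers. In replicate 1, where they could be measured, Alx1, Alx4, Pax3, Lhx8 and Shox2 were all brighter in PTIP -/-: Pax3 2.12-fold, Alx4 1.47-fold, Lhx8 1.39-fold, Shox2 1.32-fold and Alx1 1.25-fold. The other Pax3 probe sets gave 2.04-fold and 1.68-fold. The folds are not adjusted for the median signals of the replicate 1 arrays, 97.8 in PTIP -/- and 83.2 in PTIP +/+. Over all genes tested the median log2 difference in replicate 1 was 0.03, and the share of them brighter in PTIP -/- there was not counted. In replicate 2 both arrays lay under the level for each of these 5 genes, so no fold is given there, and the replicate 1 values have no second measurement.

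The AP-2 genes were slightly dimmer in PTIP -/- where they were bright. In replicate 2, Tfap2a was 1.28-fold, 1.59-fold and 1.24-fold lower on its 3 probe sets and Tfap2b 1.1-fold and 1.36-fold lower on its pair. In replicate 1, Tfap2a was 2.03-fold higher in PTIP -/- on the brightest probe set, from signals of 102.4 and 50.5 close to the level, and 1.26-fold and at least 1.30-fold higher on the others. Tfap2b had no level in either genotype there. The measured log2 difference of -3.30 for Tfap2b in replicate 1 sets 2.6 against 25.6 and is no measure of a level.

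Prrx1 was lower in PTIP -/- on its brightest probe set in both numbers, by 1.25-fold and 1.47-fold (log2 -0.44 ± 0.17, SD, n = 2). In replicate 2 all 5 probe sets above the level were lower, by 1.47-fold to 2.04-fold, while in replicate 1 they ran from 1.33-fold lower to 1.14-fold higher. By its brightest probe set, Prrx1 was the 1 member whose PTIP -/- arrays both lay on one side of both PTIP +/+ arrays, and 12.1% of all genes tested lay wholly lower in that way. By measured signals of any size, 2 members (Pax3 and Lhx8) were higher in PTIP -/- within both numbers, beside 33.9% of genes tested, 2 (Tfap2b and Prrx1) were lower, beside 25.8%, and 5 had opposite signs. The signs of Pax3 and Lhx8 in replicate 2 and of Tfap2b in replicate 1 come from signals under the level, and another probe set of Pax3 and of Tfap2b turned them there, so of these 4 only Prrx1 was measured in both numbers. Twist1 was 1.02-fold lower in replicate 1 and 1.09-fold higher in replicate 2.

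Over all genes the limma fit of genotype called 0 genes in each direction (0% and 0%, adjusted p threshold of 0.05), members included, and 286 genes (2.29%) at an unadjusted p under 0.05. Paxip1, the deleted gene, was tested and not called either, at 43.5 and 74.6 in PTIP -/- against 1029.5 and 1040.1 in PTIP +/+. The 0 calls thus do not show that no gene differed. Standard errors of the fit for the 7 members other than Prrx1 and Twist1 ran from 0.76 to 3.98 log2, since replicate arrays of a genotype lie that far apart. Within both numbers 1 member, Pax3, was at least 2-fold higher in PTIP -/- by its measured signals, where 0.719% of genes tested were. Its replicate 2 signals of 20.1 and 9.3 are both under the level, and 0 members were when signals were raised to it. At least 2-fold lower in both numbers were 0 members, where 0.847% of genes tested were. The median genotype difference of the members was 0.04, beside 0.05 over all genes tested.

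**Figure D3:**
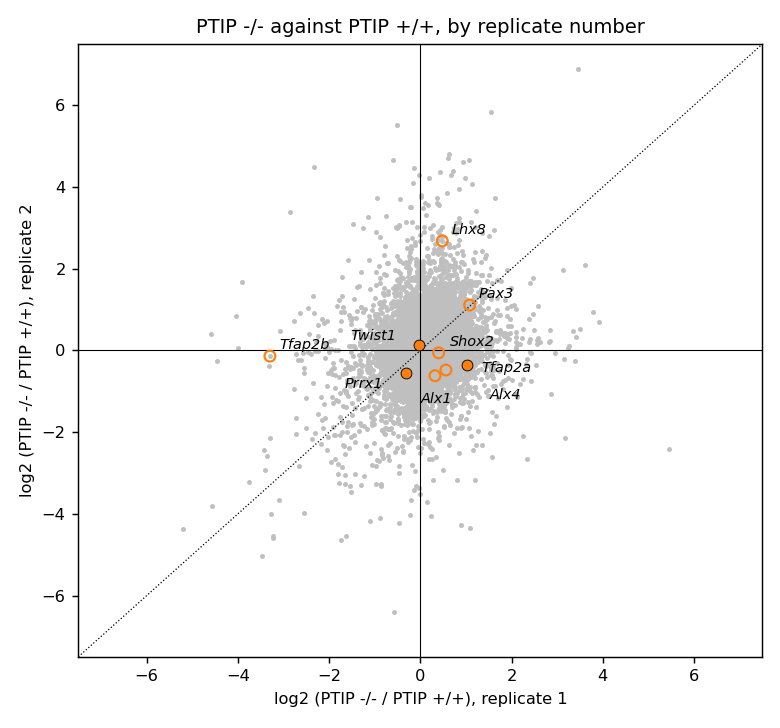
Log2 ratio of PTIP -/- to PTIP +/+ in replicate 1 (x axis) and replicate 2 (y axis) for the 12509 genes tested (grey) and the 9 members (orange, hollow where both arrays of a number lay under 47.68); the dotted line marks equal differences. The filled members, Prrx1, Twist1 and Tfap2a, lie within about 1 log2 unit of 0 on both axes.

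Cell type markers showed fibroblasts in all 4 RNAs. Of the 10 fibroblast markers, 9 were above the level, and their summed signal was 170300.2 and 176041.3 in replicate 1 and 155070.4 and 188616.4 in replicate 2 (PTIP -/- first, as in the rest of this paragraph), with Vim, the intermediate filament vimentin, the brightest. One of them did move with the number: Thy1, a surface glycoprotein, read 14822.9 and 16080.1 in replicate 1 and 1500.7 and 239.2 in replicate 2. Lists of markers of 7 other cell types summed to at most 1427.9 on any array, and no marker stood at 0. Muscle precursor markers, of which 2 of 6 were above the level, summed to 364.8 and 291.1 in replicate 1 and 294.6 and 194.7 in replicate 2, led by Cdh15 at 72.4 to 105.4. Schwann cell and glia markers, with 3 of 4 matched genes above the level and Mbp the brightest, summed to 379.2 and 466.2 against 207.7 and 206.0. Melanocyte markers (3 of 6, Mitf the brightest) summed to 464.2 and 281.2 against 326.3 and 495.1 and neuron markers (2 of 6, Map2) to 1427.9 and 851.5 against 452.6 and 1342.2. Epithelial markers (4 of 7, Epcam) summed to 927.6 and 644.8 against 618.5 and 546.9, macrophage markers (5 of 6, Csf1r) to 954.2 and 776.8 against 705.7 and 537.3 and endothelial markers (2 of 5, Kdr) to 357.6 and 224.5 against 222.2 and 277.8. Muscle, glial, epithelial and macrophage sums were thus higher in replicate 1 within both genotypes, as the medians of the arrays were, and their part in the member differences was not tested.

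Among 17 other specifiers of neural crest, 13 passed the level filter, which 12509 of all 18193 genes did, a share close to theirs. Sox10, which marks migrating crest, read 130.7 and 172.8 in PTIP -/- cells against 142.7 and 133.8 in PTIP +/+ cells, and Foxd3, another early crest factor, was under the level on all 4 arrays at 4.8 to 45.8. The members are thus described as genes known from facial and crest mesenchyme. The data do not show that these fibroblasts came from the crest.

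Other genes of crest and face were taken from 5 lists: relatives of the members, crest specifiers, facial mesenchyme factors, cofactors of AP-2 and TWIST1, and signals to facial mesenchyme. Of their 85 genes, 80 were matched and 62 tested. Within both genotypes, 11 (17.7%) were at least 2-fold higher and 5 (8.06%) at least 2-fold lower in replicate 2, beside 4.36% and 3.3% of all genes tested. A limma fit with genotype and number as terms called 3 of the 62 genes higher in replicate 2 and 0 lower, where it called 0.496% and 0.144% of all genes, and 22.8% of all genes had an unadjusted p under 0.05. The genotype fit called 0 and 0 of the 62 genes. The lists were chosen with earlier results of these data known, so these shares and calls are given for scale only.

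Those 3 genes were Bmp4, Msx1 and Kctd15. Bmp4, a signal that patterns the jaw mesenchyme, read 50.4 and 4839.2 on PTIP -/- replicates 1 and 2 and 152.8 and 19304.5 on PTIP +/+ replicates 1 and 2, a log2 difference between the numbers of 6.78 ± 0.22 (SE, limma adjusted p = 0.0394). Msx1, a homeodomain factor of the same mesenchyme that responds to BMP signals, read 173.3 and 3605.1 against 216.0 and 8578.5, with a difference of 4.85 ± 0.31 (SE, limma adjusted p = 0.0448). Kctd15, which encodes an inhibitor of AP-2, read 148.8 and 1093.5 against 178.3 and 1477.3, with a difference of 2.96 ± 0.20 (SE, limma adjusted p = 0.0474). All 3 were higher in replicate 2 in both genotypes, as Tfap2a and Tfap2b were, with no overlap between the numbers. The calls come from lists chosen with earlier results of these data known and rest on 1 residual degree of freedom. They were 0 with no level filter and up to 12 with a variance trend.

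Members of the same families did not move as one. Prrx2, the relative of Prrx1, read 1082.9 and 4589.4 in PTIP -/- cells against 2271.1 and 7137.1 in PTIP +/+ cells, higher in replicate 2 by 2.08 and 1.65 log2, whereas Prrx1 differed by -0.30 and -0.06. Lhx6, a LIM homeodomain relative of Lhx8 with which it is expressed in the jaw, read 304.2 and 79.4 against 234.0 and 44.9, lower in replicate 2 as Lhx8 was. Hand2, a basic helix-loop-helix factor of the lower jaw and limb, read 3453.5 and 406.7 against 2161.6 and 20.9, also lower in replicate 2. The Lhx6 signal of 44.9 and the Hand2 signal of 20.9 are under the level, so their drops in PTIP +/+ cells are known only as lower bounds. Twist2, the relative of Twist1, differed by -1.02 and -0.09 log2. Tfap2c, Tfap2d, Tfap2e and Pax7 were under the filter.

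Among the remaining 2-fold genes, named after their values were seen, Foxc1, Msx2 and Id2 of the crest list, Lmx1b of the facial list, Kctd1 and Id1 of the cofactors and Fgfr2 of the signals were higher in replicate 2. Lmx1b, a LIM homeodomain factor of dorsal limb and periocular mesenchyme, had the largest value, reading 50.1 and 657.0 in PTIP -/- and 4.8 and 785.2 in PTIP +/+. Lower in replicate 2 were Ldb2, a cofactor of LIM proteins, Pdgfra, the receptor that crest mesenchyme uses for PDGF-A and PDGF-C, and Jag1, a Notch ligand. Pdgfra read 3563.4 and 174.2 in PTIP -/- cells against 5010.1 and 583.2 in PTIP +/+ cells, and Jag1 read 3162.4 and 454.8 against 3154.6 and 318.9. Foxf2, the second farthest facial factor by its mean difference, read 202.0 and 42.6 against 159.1 and 85.5, with 42.6 under the level. None of these genes passed the fit of the numbers after adjustment.

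**Figure D4:**
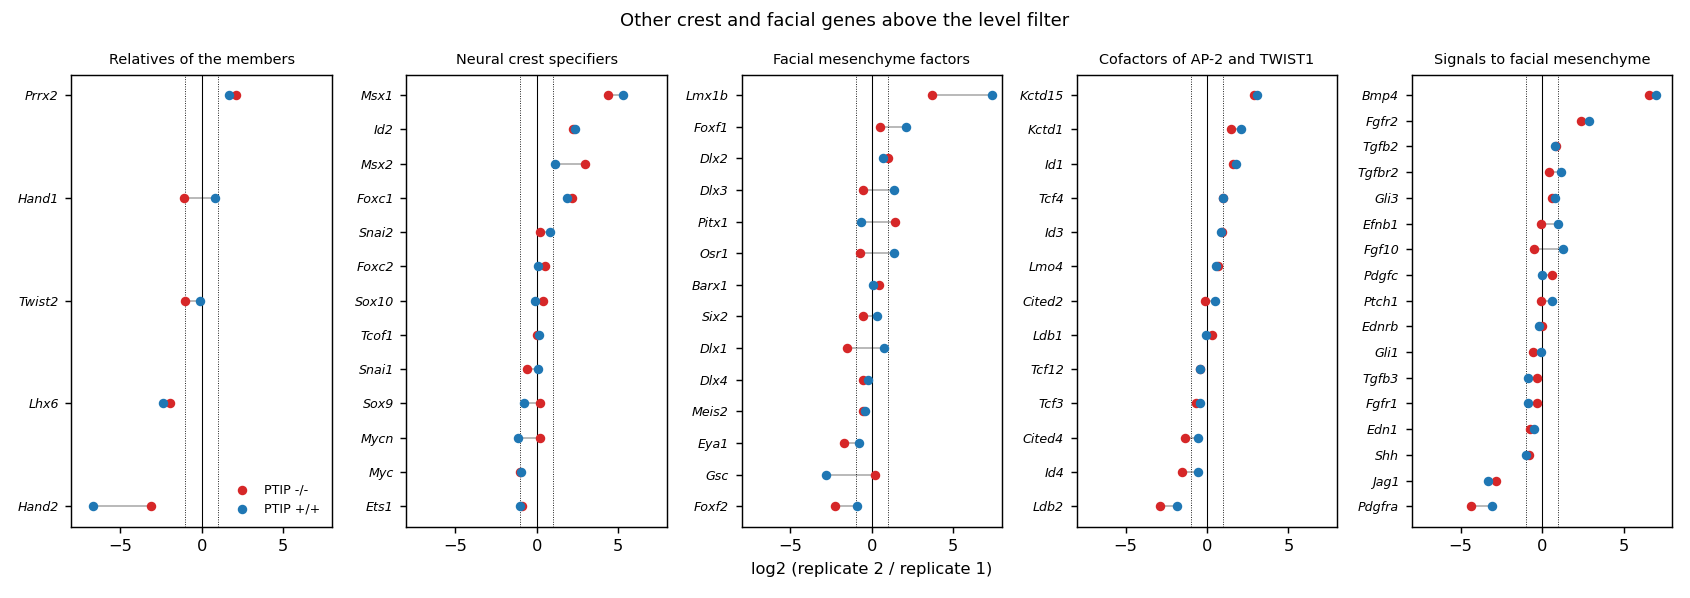
Log2 ratio of replicate 2 to replicate 1 for the 62 tested genes of the 5 other lists, in PTIP -/- (red) and PTIP +/+ (blue); a grey line joins the 2 values of a gene and dotted lines mark 2-fold. Bmp4, Msx1, Lmx1b and Kctd15 lie farthest to the right and Hand2, Pdgfra and Jag1 farthest to the left.

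Between the genotypes, by measured signals, 1 of the 62 genes was at least 2-fold higher in PTIP -/- within both numbers and 1 at least 2-fold lower. Pitx1, a homeodomain factor of the lower jaw and hindlimb, was the first, at 90.4 and 240.2 in PTIP -/- against 29.2 and 18.2 in PTIP +/+. Both PTIP +/+ signals are under the level, and with them raised to it Pitx1 was no longer 2-fold higher in replicate 1. Bmp4 was the second, lower in PTIP -/- by 1.60 log2 in replicate 1 and 2.00 in replicate 2. Both were named after their values were seen, and neither passed the genotype fit (limma adjusted p = 0.999 for each).

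The genes whose 4 values lay nearest to a member, by root mean square distance of mean-centred log2 signals over the 4 arrays, were in part other members. Nearest to Alx1 were Dsp at 1.04, Pax3 at 1.06, Lhx8 at 1.17 and Crabp1 at 1.35. Nearest to Lhx8 were 3110039M20Rik at 0.51, Tnmd at 0.78, Pax3 at 0.95 and Nnmt at 1.03. On the other side, Ecrg4 at 0.52, Fabp4 at 0.71, Crabp2 at 0.87 and Rab3b at 0.97 lay nearest to Tfap2b, and Pgap4 at 0.04, Fat4 at 0.16, Shroom2 at 0.16 and Hoxa11 at 0.20 nearest to Tfap2a. The distances for Alx1, Lhx8 and Tfap2b include signals under the level, and 4 arrays give little to tell patterns apart. Since the members were picked with their difference between the numbers known, the choice itself favours members lying near one another. Their nearness is given as a description only.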

How the data were processed

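The authors deposited linear intensities, 1 for each of 45101 probe sets on each of 4 arrays. RMA is named in the submitters' processing notes, with no version. The values are not its usual log2 output, and the background correction used is not stated. Their 2% trimmed means are 500 on each array while their medians run from 75.8 to 97.8. Which software made these values is thus not known. The 1 value of 0 was set to 0.1, intensities were taken to log2, and 64 control probe sets were set aside. Of the others, 34945 had 1 gene symbol, 932 several and 9160 none; 34741 were updated through gene numbers of RefSeq GRCm38.p6. A gene is its probe set with the highest mean, tested at or above the 40th percentile (12509 of 18193 genes). Genotype, and number beside genotype, were fitted with limma 3.58.1 in R 4.3.3 with Benjamini-Hochberg adjustment over all genes. The number of arrays limits the precision. On simulated data of 12509 genes with 200 changed, the genotype fit found 0% at log2 changes of 1 and 2 and 55.7% at 4, and the number fit 0% at 1 and 2 and 93.5% at 4. At 4 they also called a mean of 1.0 and 13.2 unchanged genes. For the number fit, only the changed genes differed between the simulated numbers, and the spread was drawn from the fit. Those shares may therefore not hold for the data, where Hand2, at -4.89, was not called (limma adjusted p = 0.131). Alternatives were quantile normalization, median centring, 2 other filters, raised signals, mean probe sets, a variance trend, a replicate block and each array left out. The members and lists were chosen with earlier results of these data known. The rule for named genes took the members, up to 4 called genes of each list or otherwise the 2 farthest between the numbers, the 4 genes nearest to each of 4 members, the brightest marker of each cell type and Paxip1. Thy1, Sox10, Foxd3, the relatives under the filter, Twist2, Pitx1 and the other 2-fold genes of the lists fall outside it and were named after their values were seen. Reading 47.68 as the lowest level was chosen after seeing the data.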

Additional observations from a re-analysis of the deposited data

Results flagged for a closer look

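Tfap2a and Twist1 had genotype differences of opposite sign in the 2 replicate numbers, from arrays above the level in each number. For Tfap2a the log2 difference of PTIP -/- from PTIP +/+ was 1.02 in replicate 1 and -0.36 in replicate 2, and for Twist1 it was -0.04 in replicate 1 and 0.12 in replicate 2. Each value sets 1 array against 1 array, and whether the 2 differ was not tested.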

How the results depend on the processing

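The replicate 2 against replicate 1 difference kept its direction under all alternatives run for 8 members. Prrx1 turned to 0.01 with centred arrays and to 0.03 over the mean of its probe sets, 1 of them under the level filter. The counts of 2 members higher and 4 lower in replicate 2 fell to 1 and 1 with the filter at the 60th percentile, which leaves fewer members, and were 2 to 2 and 4 to 5 with an array left out. The genotype difference turned for Alx1 with raised signals (0.16), for Alx4 with quantile normalization (-0.13) and centred arrays (-0.14), for Shox2 with centred arrays (-0.01) and for Twist1 with centred arrays (-0.13). With an array left out it ran from -0.62 to 0.32 for Alx1, -0.48 to 0.56 for Alx4, -0.06 to 0.40 for Shox2, -0.36 to 1.02 for Tfap2a and -0.04 to 0.12 for Twist1. Leaving out an array leaves the comparison within the other number. The 1 member at least 2-fold higher in PTIP -/- became 0 with quantile normalization, centred arrays, the 60th percentile filter, raised signals and the mean of probe sets, and 2 without any 1 array, while 0 to 1 were lower. The genotype fit called 0 genes under every alternative run. The number fit called 62 genes higher and 18 lower. These became 170 and 37 with centred arrays, 225 and 126 with the 60th percentile filter, 0 and 0 with no filter (2401 genes at an unadjusted p under 0.05), 148 and 51 with quantile normalization, 237 and 128 with raised signals and 558 and 335 with a variance trend. In the 5 lists, its 3 higher and 0 lower calls became in that order 5 and 2, 9 and 2, 0 and 0, 5 and 1, 9 and 4 and 12 and 6. The mean of probe sets gave 2 higher and 1 lower there. Other causes of these changes were not tested. With an array left out the number fit has no residual degrees of freedom and was not run. With the replicate block the genotype fit called 0 genes and put 982 at an unadjusted p under 0.05, against 286. Same-numbered arrays deviated together from their genotype means (r = 0.686 across genes), but 2 pairs do not show that a number marks a shared source. On the brightest probe sets, signals under 47.68 limit every member except Prrx1, Twist1 and Tfap2a in one of the numbers.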
